A study of Mus musculus with 6 samples.

Results

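Fibrillar collagen is modified and cross-linked by a small set of enzymes. Here 10 genes, for such enzymes and for the chaperone HSP47, were followed in the articular cartilage of young and aged mice. The genes were P4ha1, P4ha2 and P4ha3, Plod1, Plod2 and Plod3, Lox, Loxl2 and Loxl3, and Serpinh1. They were taken by name from a table of 33971 genes, and each name matched 1 gene. RNA sequencing had been performed on cartilage of wild-type mice aged 2 months (3 libraries) or 18 months (3 libraries), with no treatment given in the labels. The mice are male according to the methods of the study. The labels do not say whether the 3 libraries of an age came from separate animals, so the p-values measure only the spread between these libraries.

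Collagen chains are hydroxylated on proline and lysine in the endoplasmic reticulum, and the hydroxyproline keeps the triple helix stable at body temperature. The chaperone HSP47 binds the folded procollagen before it is exported. Outside the cell, lysyl oxidases convert lysine and hydroxylysine residues of the telopeptides to aldehydes, which then form the covalent cross-links of the fibril. The hydroxylases need oxygen, iron, 2-oxoglutarate and ascorbate, and the lysyl oxidases need copper. In cartilage these steps act mainly on collagens II, IX and XI.

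Total counts per library ranged from 48171507 to 59085179. The ages were compared in edgeR (quasi-likelihood test, 20397 genes), and a call required a Benjamini-Hochberg adjusted p under 0.05 together with a log2 fold change larger than 1 in size. Of all genes tested, 36.3% were called: 21.3% of the genes tested were lower and 14.9% of them higher at 18 months. The genes called higher were 41.2% of all calls here, 57.8% with limma on log2(FPKM + 1) and 52.3% with edgeR without 2-month replicate 2. The 11 chondrocyte markers, Col2a1 and Acan among them, were all called lower, and their summed FPKM (fragments scaled by transcript length and by library size) was 9614 to 10880 at 2 months and 56.0 to 266 at 18 months. Matn1 and Matn3, a pair of matrilins that define cartilage, were listed at 0 in an 18-month library. Their 18-month counts were 13, 5 and 0 and 7, 4 and 0, and those of Cnmd were 148, 17 and 3. These 3 markers passed the filter on low counts only through their 2-month libraries, so their calls are not independent of the filter. The 10 neutrophil markers were higher in every 18-month library, with sums of 8.89 to 3648 at 2 months and 42040 to 47060 at 18 months. In edgeR 0 of these 10 were called with all libraries (2 had an unadjusted p under 0.05) and 10 without 2-month replicate 2, while DESeq2 called 9 and limma on log2(FPKM + 0.1) called 10 with all libraries. The 7 erythroid, 5 megakaryocyte and 5 macrophage markers were also higher in every 18-month library. The summed FPKM of 7 osteoblast and osteocyte markers was 1860 to 3538 at 2 months and 882 to 922 at 18 months, and that of 5 tendon and fibroblast markers was 533 to 676 and 10.8 to 54.7. Of these, 3 osteoblast and 3 tendon markers were called lower, as were 3 of 4 skeletal muscle markers. Without 2-month replicate 2, 3 other osteoblast and osteocyte markers (Bglap, Bglap2 and Phex) and 3 of the 4 endothelial markers were called higher, and the median log2 fold change of the osteoblast list turned from -0.97 to 0.67. The sums of 4 endothelial markers overlapped between the ages, at 1.27 to 33.1 and 21.2 to 22.4. The part of these other cells in the results for the 10 genes was not tested, and in bulk tissue fewer chondrocytes and less RNA per chondrocyte cannot be told apart. The 2-month replicate 2 stood apart from the other young libraries, with a Col1a1 FPKM of 1420 where the others had 29.3 and 60.0. It also had the highest young sums of neutrophil (3648 against 8.89 and 57.9), erythroid (7366 against 288 and 788) and endothelial markers (33.1 against 1.27 and 4.80). The same was true of the megakaryocyte and macrophage markers. Its chondrocyte marker sum of 10620 lay between those of the other young libraries. The 18-month replicate 1 had a chondrocyte marker sum of 266, where the other aged libraries had 56.0 and 56.2. Counts of Xist, which is transcribed from the inactive X chromosome, ran from 88239 to 102417 at 2 months and from 11 to 30 at 18 months. This goes against all 6 libraries being male, and the sex pattern of the libraries and age cannot be told apart.

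Of the 10 genes, 9 were called lower in aged cartilage, where 21.3% of all genes tested were, and these 9 had a lower FPKM in every 18-month library than in every 2-month library. Among all genes tested, 32.8% were ordered in that way and 35.6% in the opposite way. The same 9 were called lower with a log2 fold change below -2, as were 12.5% of all genes tested. All 10 genes passed the filter on low counts, but P4ha3 did so only through its 2-month libraries. It had 62, 108 and 87 counts there and 7, 4 and 10 at 18 months. A gene this scarce in the aged libraries could be tested only if it was higher in the young ones, so its call is not independent of the filter. The 10 genes had a median log2 fold change of -3.29, and the median over all genes tested was -0.02. Plod3, a lysyl hydroxylase that also transfers glucose to galactosylhydroxylysine, was the exception and did not pass the test.

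**Figure D1:**
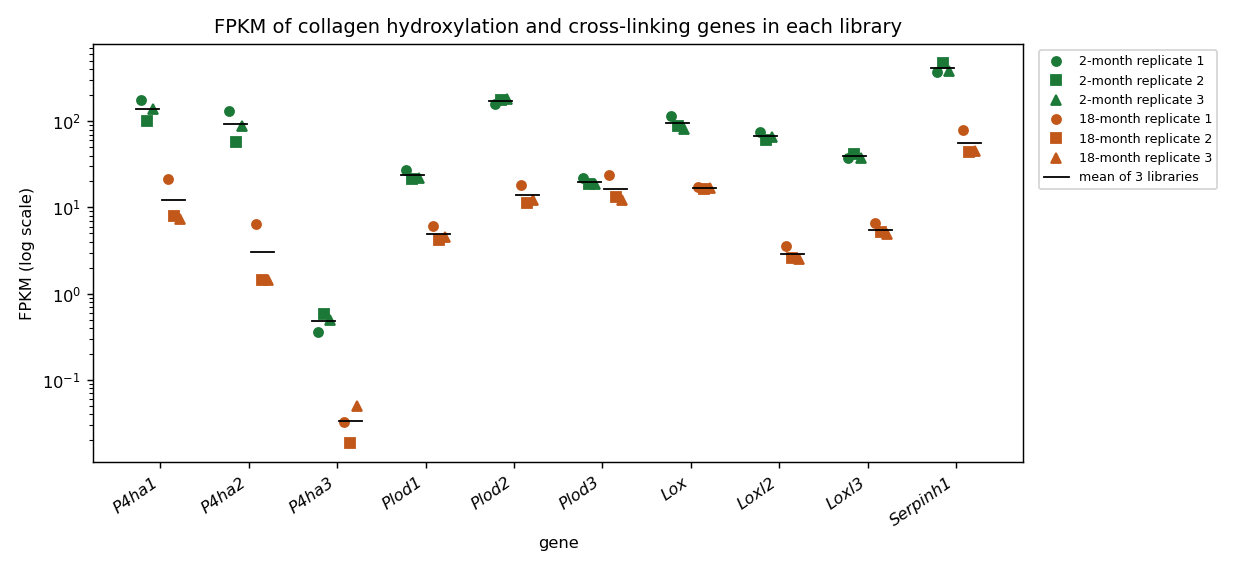
FPKM of the 10 collagen-modifying genes (log scale) in each library, green for 2 months and orange for 18 months, with a symbol for each replicate and a line at the mean of the 3 libraries. The aged points lie below the young points for every gene except Plod3, where 18-month replicate 1 reached 23.5 and the highest 2-month library 21.9.

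The prolyl 4-hydroxylase is a tetramer of catalytic alpha subunits, encoded by the P4ha genes, and of the beta subunit P4hb. P4ha1 (ENSMUSG00000019916, chr10:59323296-59373304, GRCm38), the alpha subunit used by most cells, had FPKM values of 178, 102 and 139 in the 2-month replicates 1 to 3. In the 18-month replicates they were 21.3, 7.90 and 7.40. The groups were far apart, and the aged replicate 1 stood well above the other aged libraries. The means were 139.7 ± 37.9 and 12.2 ± 7.91 (SD, n = 3 each). The log2 fold change was -3.62 (SE 0.53, edgeR adjusted p = 0.0036), which is 12.3-fold lower.

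P4ha2 (ENSMUSG00000018906, chr11:54100095-54131662) encodes the alpha subunit prominent in chondrocytes and endothelial cells. Its FPKM was 132, 57.5 and 87.0 at 2 months and 6.35, 1.43 and 1.43 at 18 months. Both ages spread widely around their means of 92.1 ± 37.4 and 3.07 ± 2.84 (SD, n = 3 each), yet the lowest young library was above the highest aged library. P4ha2 had the largest log2 fold change of the 10 genes, -5.02 (SE 0.81, edgeR adjusted p = 0.0048), or 32.4-fold lower. The values of P4ha1 and P4ha2 rested partly on 18-month replicate 1: without it the log2 fold changes were -4.26 and -6.07, both still called.

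P4ha3 (ENSMUSG00000051048, chr7:100285520-100319699), a minor alpha subunit, was scarce at either age. It had 62, 108 and 87 counts in the young libraries and 7, 4 and 10 in the aged libraries. These counts correspond to FPKM values of 0.356, 0.582 and 0.490 and of 0.0321, 0.0184 and 0.0491. Its log2 fold change was -3.84 (SE 0.47, edgeR adjusted p = 0.0023). The small counts limit this value, and on the log2(FPKM + 1) scale its difference of -0.51 was under the limit for a call.

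P4ha1 and P4ha2 are known targets of the hypoxia-inducible factor HIF-1, whose binding core reads ACGTG or GCGTG. The 250 bases before the RefSeq transcription start were therefore searched for both cores on both strands, so that a match on the other strand reads CACGT or CACGC. RefSeq promoters (GRCm38.p6) were found for 6 of the genes, namely P4ha1, P4ha2, P4ha3, Plod1, Plod3 and Serpinh1. Of these, 5 held at least 1 match, and among 32851 promoters of the same length 38.6% did. ACGTG was found in 16.6% of all promoters and GCGTG in 28.2%. The sequences below are shown because they set P4ha1 and Serpinh1, which fell and held matches, beside P4ha3, which fell with no match, and Plod3, which was not called. They read 5′ to 3′ on the strand of the gene, and capitals mark the matches. In order, the positions are chr10:59323046-59323295 (plus strand), chr7:99353240-99353489 (minus), chr7:100285270-100285519 (plus) and chr5:136986769-136987018 (plus).
P4ha1: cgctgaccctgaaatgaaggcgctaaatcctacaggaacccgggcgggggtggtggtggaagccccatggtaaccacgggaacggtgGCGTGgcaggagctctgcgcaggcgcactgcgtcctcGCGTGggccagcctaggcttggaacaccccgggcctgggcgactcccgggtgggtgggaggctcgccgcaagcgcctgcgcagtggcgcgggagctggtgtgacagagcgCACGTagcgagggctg
Serpinh1: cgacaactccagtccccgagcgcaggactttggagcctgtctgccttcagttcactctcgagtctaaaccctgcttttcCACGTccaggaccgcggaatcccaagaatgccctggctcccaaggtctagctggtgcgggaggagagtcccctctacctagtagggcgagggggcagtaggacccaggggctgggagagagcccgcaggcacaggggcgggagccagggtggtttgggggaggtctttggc
P4ha3: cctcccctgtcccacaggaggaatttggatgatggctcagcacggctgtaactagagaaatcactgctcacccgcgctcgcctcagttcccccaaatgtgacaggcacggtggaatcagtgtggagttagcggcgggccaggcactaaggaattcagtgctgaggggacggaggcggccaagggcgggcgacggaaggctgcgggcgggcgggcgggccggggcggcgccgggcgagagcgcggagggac
Plod3: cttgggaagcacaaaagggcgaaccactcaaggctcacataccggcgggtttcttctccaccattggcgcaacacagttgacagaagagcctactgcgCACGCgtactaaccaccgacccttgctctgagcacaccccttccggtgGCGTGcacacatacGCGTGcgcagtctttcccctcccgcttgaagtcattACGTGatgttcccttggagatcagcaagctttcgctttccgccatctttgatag
P4ha1 and P4ha2 each held 3 matches, 1 of ACGTG and 2 of GCGTG. Plod3 held 4 matches, 1 of ACGTG and 3 of GCGTG, and P4ha3 held none. Plod1 had 1 GCGTG match and Serpinh1 had 1 ACGTG match. The matches describe letters in these windows and do not show binding, and a role of HIF-1 in the age differences was not tested.

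The Plod genes encode the lysyl hydroxylases. Plod2 (ENSMUSG00000032374, chr9:92542223-92608428) hydroxylates telopeptide lysines, the residues that give the hydroxylysine cross-links typical of cartilage and bone. Its FPKM was 157, 174 and 179 in the young libraries and 18.2, 11.2 and 12.1 in the aged libraries. The young libraries differed little and none approached the aged range, with means of 170.2 ± 11.3 and 13.8 ± 3.78 (SD, n = 3 each). The log2 fold change was -3.71 (SE 0.23, edgeR adjusted p = 0.00075), a 13.1-fold lower level.

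Plod1 (ENSMUSG00000019055, chr4:147909753-147936767), which hydroxylates lysines within the helix, had FPKM values of 27.5, 21.2 and 22.1 at 2 months and 6.13, 4.21 and 4.59 at 18 months. It fell by 2.33 on the log2 scale (SE 0.20, edgeR adjusted p = 0.0012), or 5.03-fold, the smallest decrease among the 9 called genes.

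Plod3 (ENSMUSG00000004846, chr5:136987019-136996648) had FPKM values of 21.9, 18.7 and 18.5 at 2 months and 23.5, 13.3 and 12.04 at 18 months. The highest library of all was the aged replicate 1, so the groups overlapped. The log2 fold change was -0.36 (SE 0.27, edgeR adjusted p = 0.29). Without 18-month replicate 1 it was -0.69 with an adjusted p of 0.022, still under the fold limit. By the exons of GENCODE M21, 529 of its 4519 exonic bases also lie in exons of Znhit1, a gene on the opposite strand. Znhit1 had a log2 fold change of 0.74 (edgeR adjusted p = 0.021). It is not given whether the counting used strand, so the reads of the shared stretch cannot be assigned with certainty.

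Serpinh1 (ENSMUSG00000070436, chr7:99345376-99353239), which encodes HSP47, the collagen-specific chaperone, was the most abundant of the 10 genes at both ages. Its FPKM was 376, 474 and 379 in young cartilage and 78.9, 43.6 and 45.1 in aged cartilage. The young mean of 409.9 ± 55.8 stood against an aged mean of 55.9 ± 19.97 (SD, n = 3 each), with no overlap. The log2 fold change was -2.96 (SE 0.28, edgeR adjusted p = 0.0014), a 7.75-fold lower level.

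Of the lysyl oxidase genes, Lox (ENSMUSG00000024529, on chromosome 18), the founding member of the family, had FPKM values of 114, 88.9 and 80.4 at 2 months. In the aged libraries the values were 17.2, 16.3 and 16.6. The aged libraries lay closer together for Lox than for any of the other 9 genes, with a mean of 16.7 ± 0.42 after 94.4 ± 17.5 at 2 months (SD, n = 3 each). Lox fell by 2.58 on the log2 scale (SE 0.18, edgeR adjusted p = 0.00088), or 5.98-fold.

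Loxl2 (ENSMUSG00000034205, chr14:69609068-69695834), a lysyl oxidase with scavenger receptor domains that also acts on collagen IV, dropped further. Its FPKM was 75.9, 60.5 and 66.2 at 2 months and 3.61, 2.58 and 2.54 at 18 months. The log2 fold change was -4.62 (SE 0.22, edgeR adjusted p = 0.00071), or 24.7-fold lower, second only to P4ha2 among the 10 genes. Loxl3 (ENSMUSG00000000693, chr6:83034173-83052562), a close relative of Loxl2, had values of 37.9, 42.2 and 37.0 at 2 months and of 6.54, 5.13 and 4.96 at 18 months. It fell by 2.89 on the log2 scale (SE 0.13, edgeR adjusted p = 0.00071). By the exons of GENCODE M21, Loxl3 shares 535 of its 4603 exonic bases with Htra2 on the opposite strand. Htra2 had a log2 fold change of 1.099 (edgeR adjusted p = 0.0012). It was called higher here but not in limma on TPM or with a mean FPKM of at least 1 required.

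**Figure D2:**
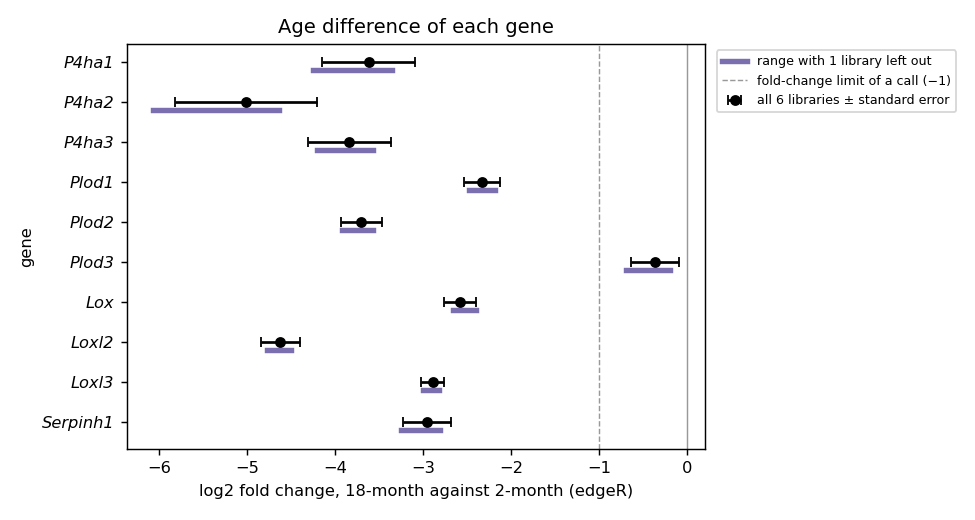
Log2 fold change of each gene (18-month minus 2-month) from edgeR's quasi-likelihood test, with bars of 1 standard error, a violet band for the range when 1 library is left out, and a dashed line at the fold limit. The values run from -5.02 for P4ha2 to -0.36 for Plod3, and 9 of the 10 lie beyond the fold limit of 1.

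Since FPKM is scaled by transcript length, the genes can be ranked by level within an age. In young cartilage the order of mean FPKM was Serpinh1, Plod2, P4ha1, Lox, P4ha2, Loxl2, Loxl3, Plod1, Plod3 and P4ha3. Neighbours from Plod2 down to Loxl2 had overlapping library ranges, as had Plod1 and Plod3. In aged cartilage the order became Serpinh1, Lox, Plod3, Plod2, P4ha1, Loxl3, Plod1, P4ha2, Loxl2 and P4ha3. Serpinh1 stood clear of Lox, P4ha1 of Loxl3, and Loxl2 of P4ha3, and all other neighbours overlapped. Plod3 thus moved from rank 9 to rank 3, and P4ha2 from rank 5 to rank 8.

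The spread within an age also followed particular libraries. In 18-month replicate 1, the library with the highest chondrocyte marker sum among the aged, 9 of the 10 genes had their highest aged value, P4ha3 being the exception. The 2-month replicate 2 was the young library with high Col1a1 and with the highest neutrophil, erythroid and endothelial markers. In it 4 genes had their lowest young value (P4ha1, P4ha2, Plod1 and Loxl2) and 3 their highest (P4ha3, Loxl3 and Serpinh1). The contribution of these libraries' cell composition was not tested.

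The composition of each family was then compared as the share of each gene in the summed FPKM of its 3 genes. Each share was tested with an exact two-sided permutation test, adjusted over the 9 shares, and 3 libraries against 3 cannot give a p below 0.1. Among the lysyl hydroxylases, Plod2 made up 79.7% ± 3.06 at 2 months and 39.7% ± 2.20 at 18 months (SD, n = 3 each). Plod3 rose from 9.25% ± 1.16 to 45.8% ± 3.70 in mean share. Both differences had an exact p of 0.1 (adjusted p = 0.15), the smallest the design allows for the raw p, and the libraries did not overlap. The ratio of Plod2 to Plod3 was 7.20, 9.32 and 9.66 in young libraries and 0.771, 0.841 and 1.007 in aged libraries. Plod1 took 11.1% ± 1.91 and 14.5% ± 1.58, with overlapping libraries (exact p = 0.2, adjusted p = 0.26). From summed counts in place of FPKM the Plod1 libraries no longer overlapped, with a difference of 5.17 percentage points where FPKM gave 3.41 (exact p = 0.1).

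Among the alpha subunits, the mean share of P4ha1 was 60.8% ± 3.21 at 2 months and 81.6% ± 4.06 at 18 months, and that of P4ha2 was 38.9% ± 3.33 and 18.1% ± 4.19 (SD, n = 3 each). The libraries did not overlap for either gene (exact p = 0.1, adjusted p = 0.15 for each). P4ha1 exceeded P4ha2 by 1.35, 1.77 and 1.60 times in the young libraries and by 3.36, 5.53 and 5.19 times in the aged libraries. P4ha3 held 0.23% and 0.29% of the sum (exact p = 0.8, adjusted p = 0.8).

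Among the 3 lysyl oxidases, Lox held 46.8% ± 3.14 of the summed FPKM at 2 months and 66.6% ± 3.26 at 18 months, and Loxl2 held 33.6% ± 2.25 and 11.5% ± 1.5 (SD, n = 3 each). Neither gene's libraries overlapped (exact p = 0.1, adjusted p = 0.15 for each). The ratio of Lox to Loxl2 was 1.502, 1.47 and 1.22 in young libraries and 4.75, 6.33 and 6.55 in aged libraries. Loxl3 had 19.6% ± 2.74 and 21.9% ± 1.77 (exact p = 0.4, adjusted p = 0.45).

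**Figure D3:**
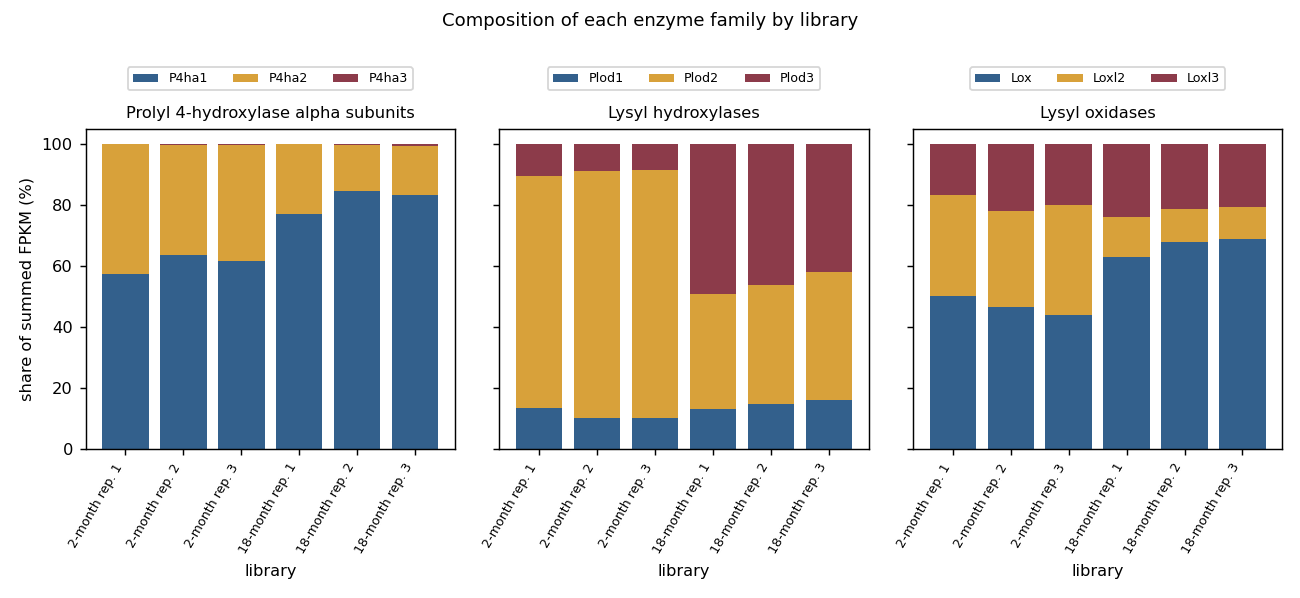
Share of each gene in the summed FPKM of its family (percent), stacked for each library, for the prolyl 4-hydroxylase alpha subunits, the lysyl hydroxylases and the lysyl oxidases. Plod3 takes 9.25% of its family on average at 2 months and 45.8% at 18 months, while P4ha1 and Lox gain share over P4ha2 and Loxl2.

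The lysyl oxidase family has a pair of further members, Loxl1 and Loxl4. Loxl4 was the most abundant of the 5 in young cartilage, with FPKM values of 299, 177 and 225, and had 2.99, 1.74 and 1.76 in aged cartilage. Its log2 fold change was -6.85 (SE 0.41, edgeR adjusted p = 0.00075). Loxl1, which is needed for elastic fibres, had 0.883, 7.64 and 1.97 at 2 months and 3.51, 3.39 and 3.43 at 18 months, and its call depended on 1 library. With all libraries its log2 fold change was -0.05 (edgeR adjusted p = 0.96), and without 2-month replicate 2 it was called higher, at 1.17 (adjusted p = 0.036). Over all 5 genes, a sum chosen after the values were seen, Loxl4 went from 52.8% ± 5.12 to 6.93% ± 1.65 of the summed FPKM and Lox from 21.6% ± 2.05 to 54.5% ± 3.25 (SD, n = 3 each).

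The products of the 10 genes act on collagen, so the FPKM of these genes was also expressed per 1000 FPKM of 12 collagen chains. These were chains of collagens I, II, III, V, IX, X and XI. Col10a1 alone had 2322, 2098 and 2077 FPKM at 2 months and 142, 19.6 and 18.7 at 18 months. The chains summed to 4743, 10110 and 5543 FPKM at 2 months and to 771, 604 and 614 at 18 months. All 10 genes together gave 236, 103 and 182 per 1000 chain FPKM in young libraries and 236, 175 and 174 in aged libraries, which overlapped. Plod3, Plod1 and Loxl3 were higher in every aged library on this scale. Plod3 had 4.61, 1.85 and 3.34 at 2 months and 30.5, 22.0 and 19.6 at 18 months. Loxl3 was only just apart, with 7.99, 4.17 and 6.68 at 2 months and 8.48, 8.50 and 8.08 at 18 months. Loxl2 was lower in every aged library, at 4.13 to 4.68 after 5.98 to 16.0. The other 6 genes overlapped between the ages.

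This picture depended on the type I chains, which made up 1.103%, 22.1% and 1.89% of the chain FPKM in young libraries and 65.2%, 84.6% and 85.0% in aged libraries. Type I collagen is the collagen of bone, tendon and skin. With Col1a1 and Col1a2 left out of the sum, a choice made after the values were seen, the 10 genes gave 239, 132 and 186 per 1000 chain FPKM at 2 months and 678, 1139 and 1162 at 18 months. Then 8 genes were higher in every aged library, and P4ha2 and Loxl2 overlapped. The chain sum without type I was 4691, 7869 and 5438 FPKM at 2 months and 268, 92.8 and 91.9 at 18 months. The share of all genes ordered in this way was not computed on either scale. A gene that fell less than the chains comes out higher, so these counts describe the denominator as well as the 10 genes. These ratios are within each library and show unequal change of the 10 genes and the chains, not a rise of the 10 genes.

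**Figure D4:**
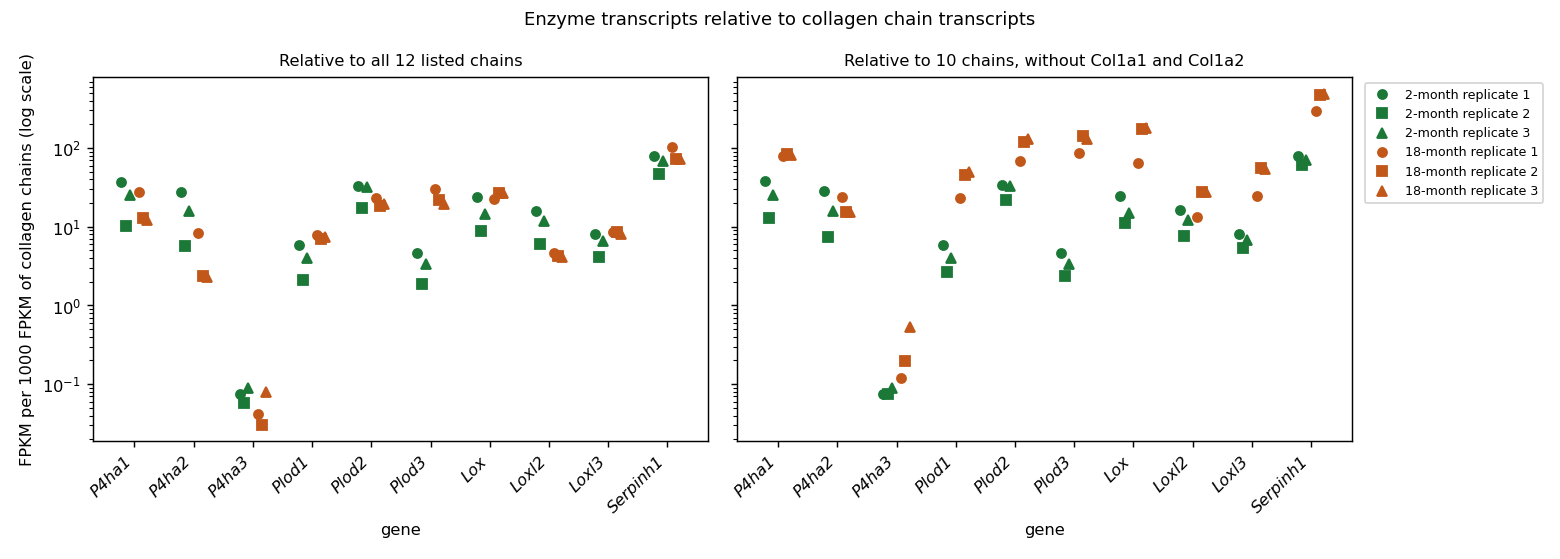
FPKM of each gene per 1000 FPKM of collagen chains (log scale) in each library, over all 12 chains on the left and over 10 chains without Col1a1 and Col1a2 on the right. On the left 6 genes overlap between the ages, and on the right 8 genes are higher in every 18-month library. No share of all genes was computed on either scale.

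Other genes of the pathway were counted by list. Of 15 partners in modification and folding, 11 were called lower, 1 was called higher and 3 were not called, with a median log2 fold change of -2.86. Over all genes tested, 21.3% were called lower and 14.9% higher. P4hb, the beta subunit of the prolyl 4-hydroxylase and a disulfide isomerase in its own right, had FPKM values of 890.1, 468 and 602 in young cartilage and 199.6, 147 and 145 in aged cartilage. It was 4.27-fold lower (log2 fold change -2.09, edgeR adjusted p = 0.0044). Colgalt2, a galactosyltransferase for hydroxylysine, had a mean FPKM of 124 at 2 months and 5.69 at 18 months (log2 fold change -4.55, adjusted p = 0.0073), and without 18-month replicate 1 its log2 fold change was -5.86. Tmem38b, a channel of the endoplasmic reticulum, was the partner called higher, with means of 4.64 and 12.6 (log2 fold change 1.37, adjusted p = 0.0018).

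Of 14 genes of procollagen export and propeptide processing, 10 were called lower (21.3% of all genes tested were) and 4 were not called. Their median log2 fold change was -1.81. Sparc, a collagen-binding matrix protein, was the most abundant, at 5682 FPKM on average at 2 months and 385 at 18 months (log2 fold change -3.96, edgeR adjusted p = 0.0015). Pcolce2, which enhances removal of the C-propeptide, had 74.2, 75.4 and 78.1 at 2 months and 1.27, 0.251 and 0.311 at 18 months. Its log2 fold change was -7.06 with all libraries and -8.13 without 18-month replicate 1. Tll1, a propeptide protease with 217, 206 and 236 counts at 2 months, had 40, 0 and 5 at 18 months (edgeR adjusted p = 0.040). Like P4ha3, Tll1 passed the filter on low counts only through its 2-month libraries. Its place among the 10 called lower is therefore not independent of the filter. The log2 fold change of Tll1 was -4.20 and rested on single libraries, being -6.61 without 18-month replicate 1. The call was lost without 18-month replicate 3, 2-month replicate 1 or 2-month replicate 3 (edgeR adjusted p = 0.13, 0.070 and 0.090). It was also lost in edgeR without a filter on low counts (adjusted p = 0.054) and with the replicate number as a block (0.056). In limma on log2(FPKM + 1) it was lost too.

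Of the 12 collagen chains themselves, 10 were called lower (21.3% of all genes tested were), with a median of -4.29 over all 12. Col2a1, the main chain of cartilage fibrils, had a log2 fold change of -7.20 (edgeR adjusted p = 0.0011). Col10a1, the collagen of hypertrophic chondrocytes, had 2322, 2098 and 2077 FPKM at 2 months and 142, 19.6 and 18.7 at 18 months, and its log2 fold change was -5.28 with all libraries and -6.88 without 18-month replicate 1. Col9a1 and Col9a2, chains of the collagen on the surface of these fibrils, had log2 fold changes of -10.16 and -7.32 (edgeR adjusted p = 0.0024 and 0.0046). Without 18-month replicate 1 these were -11.0 and -9.08, and without 2-month replicate 2 that of Col9a1 was -9.23. Col1a1 was not called with all libraries (log2 fold change -0.82, adjusted p = 0.64), and without 2-month replicate 2 it was called higher (2.56, adjusted p = 0.0018). Among 5 genes of ascorbate and copper supply, 1 was called lower and 4 were not called, with a median of -0.47, and 1 of 5 is near the 21.3% of all genes called lower. The gene called was Slc23a2, an ascorbate transporter, with means of 7.68 and 3.92 FPKM (log2 fold change -1.05, edgeR adjusted p = 0.0014). This change lies at the fold limit, and the call was lost with median-of-ratios size factors, total counts alone, DESeq2 and limma on both FPKM scales, where the log2 fold change was -0.996 to -0.82. The copper importer Slc31a1 had means of 12.1 and 9.11 (log2 fold change -0.47, edgeR adjusted p = 0.032). The copper chaperone Atox1 had 54.5 and 81.9 (log2 fold change 0.52, adjusted p = 0.039), under the fold limit.

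Of 11 other genes known as HIF-1 targets, 8 were called lower (21.3% of all genes tested were) and 3 were not called, with a median log2 fold change of -2.06. The number called was 6 when any library other than 2-month replicate 2 was left out, and 10 without that library. Limma called 6 on log2(FPKM + 0.1) and 6 on log2(FPKM + 1). Ldha and Pgk1, a pair of glycolytic enzymes, had log2 fold changes of -1.11 and -1.08 (edgeR adjusted p = 0.036 and 0.041), and both lost the call when any library other than 2-month replicate 2 was left out (adjusted p from 0.066 to 0.13). Adm, which encodes the peptide adrenomedullin, had 54.0, 16.3 and 29.2 FPKM at 2 months and 0.411, 0.300 and 0.635 at 18 months (log2 fold change -6.29, adjusted p = 0.0016). Bnip3, a mitophagy receptor, had 396, 125 and 274 at 2 months and 19.8, 11.8 and 13.1 at 18 months (log2 fold change -4.26, adjusted p = 0.0024). In all 3 of P4ha1, Adm and Bnip3 the lowest young value was in 2-month replicate 2. The same held for genes outside this list, P4hb, Acan and Sox9 among them, and it did not hold for Plod2 or Lox. The share of all genes with this order was not computed.

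**Figure D5:**
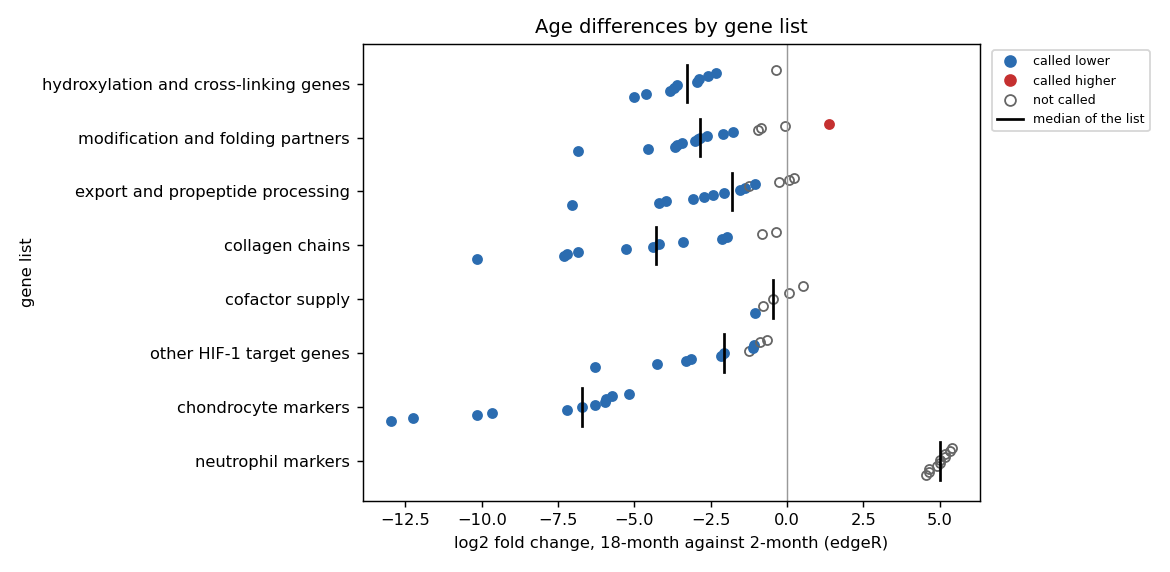
Log2 fold change (18-month minus 2-month, edgeR) of every tested gene in the enzyme set and in the 5 lists of related genes, with the chondrocyte and neutrophil markers below, each point being 1 gene and each black line the median of the list. The median was -3.29 for the enzymes, -4.29 for the collagen chains and -0.47 for the genes of cofactor supply.

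The genes whose profiles over the 6 libraries lay closest to those of Serpinh1, Plod2, P4ha1 and Lox were sought among the 13900 tested genes whose mean FPKM reached 1. Likeness was the Euclidean distance between log2(FPKM + 0.1) profiles, each centred on its own mean, and it is given as a description. For Serpinh1 the nearest were Kif7 (distance 0.17), Col15a1 (0.29) and Fzd8 (0.31). For Plod2 they were Grb10 (0.19), Sdk2 (0.27) and Cybrd1 (0.32). P4ha1 had Cpne8 (0.26) and Gm7329 (0.29) among its nearest genes, and Lox had Lyplal1 (0.30), Spata1 (0.31) and Disp1 (0.33).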

How the data were processed

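RNA sequencing was performed on articular cartilage of 2-month and 18-month wild-type mice, with 3 libraries of each age. Libraries were poly(A)-selected and strand-specific, read from both ends, with molecular identifiers in the adapters. For each gene the authors deposited raw counts, which are whole numbers, and FPKM, which is scaled by transcript length and library size. The submitters' processing notes name cutadapt 1.9, HISAT2 2.0.4, UMI-tools, StringTie 1.3.4d, DESeq2 and edgeR. The genome build, the annotation and the use of strand in counting are not given in the sources used here. Positions matched GENCODE M21 (GRCm38) for 9 of the 10 genes, all but P4ha2. All value columns were used. Whether identifiers were collapsed before counting is not given either.

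The raw counts were modelled by edgeR 4.0.16 under R 4.3.3 (TMM, filterByExpr, quasi-likelihood, no replicate block), with Benjamini-Hochberg adjustment over 20397 genes. Standard errors were obtained by dividing each log2 fold change by the root of its F statistic. Alternatives used DESeq2 1.42.0 and limma 3.58.1 on log2(FPKM + 0.1), log2(FPKM + 1) and TPM. Shares were tested with scipy 1.17.1. Between libraries of an age, the median chi-square per gene was 6.70 to 81.6 times that expected from counting alone, lowest for 18-month replicates 2 and 3. No pair agreed within counting noise, so none was counted as 1 library deposited again. This does not show that they came from separate animals.

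The 10 genes and the lists were chosen with earlier results of these data known. All 10 are named. From each related list up to 4 genes are named, the 2 highest in mean FPKM and the 2 called genes with the largest change; Col1a1, Loxl1, Tmem38b, Znhit1, Htra2, Bglap, Bglap2 and Phex were named after their values were seen. Of 13 listed HIF-1 targets, 2 were not analysed here, and features of protein sequence, planned at first, were not analysed here. A gene near P4ha1 in profile is not reported here.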

Additional observations from a re-analysis of the deposited data

How the results depend on the processing

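The 9 calls were kept in edgeR without a filter, with median-of-ratios size factors, with total counts alone, in DESeq2, in limma on log2(FPKM + 0.1) and on TPM, and without each library in turn. With a mean FPKM of at least 1 required, 8 of 9 tested genes were called, since P4ha3 was not tested. In limma on log2(FPKM + 1), 8 were called, since P4ha3 had a difference of -0.51 (adjusted p = 0.003), under the fold limit. No direction of the 10 fold changes turned under these alternatives. Of the 57 genes of the related lists, 41 were called in edgeR, where 36.3% of all genes tested were. Alternatives that kept both limits called 36 to 45, and adjusted p alone, without the fold limit, called 47. The 45 came without 2-month replicate 2, where 9583 of all 21489 genes tested were called, and in limma on TPM, where 8928 of 21539 were. Plod3 ranged from -0.69 (without 18-month replicate 1) to -0.19 when 1 library was left out. On TPM the median over all genes was -0.33 (limma), and Plod3 was at -0.77 and the 9 others were called.

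From summed counts in place of FPKM, the difference in share was 5.17 percentage points for Plod1 and 32.3 for Plod3. The difference for P4ha3 turned in sign when 1 library was left out, ranging from -0.075 to 0.14 percentage points.

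Replicate numbers did not pair the libraries: the correlations of same-numbered deviations were 0.034, 0.044 and -0.024. With the replicate number as a block, these 9 genes were still called, and P4ha2 had a log2 fold change of -5.28. The block gave 6032 calls over all genes, where the fit without it gave 7401. The low counts of P4ha3 and 3 libraries per age limit the precision.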
